A study of Mus musculus with 2 samples.

Results

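The interferon-inducible membrane and mitochondrial genes Ifitm1, Ifitm2, Ifitm3, Bst2, Ifi27, Ifi27l2a and Ifi35 were followed in tumour endothelial cells (ECs) at single-cell resolution. They were chosen by name for the proteins they encode, but with earlier results of these data known. All 7 were among the 17139 genes listed. ECs were sorted as live CD31+ cells from subcutaneous Lewis lung carcinoma (LLC) tumours, a transplantable mouse lung cancer line, grown in male C57BL/6J mice that were 8 to 9 weeks old when the tumour cells were implanted. The PBS group was 1 adult mouse that received PBS in the tumour (i.t.), and the cGAMP group was 1 adult mouse of the same strain that received i.t. cGAMP, the cyclic dinucleotide that activates STING. The cGAMP dose was 14 μg in 70 μl, and tumours were taken 24 h after the injection. With 1 mouse and 1 library per condition there was no replicate, so no test between the conditions was possible, and every interval below is a 95% interval that covers counting error only. The mouse, the library and the treatment cannot be told apart.

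IFITM proteins are short membrane proteins that block the fusion of enveloped viruses with the host cell. Ifitm3 and Ifitm2 act mostly in endosomes, and Ifitm1 acts nearer to the cell surface. Bst2, also called tetherin, holds budding virus particles at the plasma membrane. Ifi27 and Ifi27l2a belong to a family of very small hydrophobic proteins found in mitochondria and other inner membranes, and Ifi35 is a cytosolic partner of Nmi. Transcription of such genes is typically switched on by type I interferon through a DNA motif called the interferon-stimulated response element, or by interferon-γ through another called the gamma-activated site.

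The PBS library held 2517 cells with a median of 29780 unique molecular identifiers (UMIs, each standing for 1 captured mRNA molecule) per cell, and the cGAMP library held 1340 cells with a median of 41177.5. Only 1 cell barcode occurred in both. The 8 pan-endothelial markers were all detected in both libraries, and Pecam1, which encodes CD31, had a UMI in 98.2% of PBS cells and 97.0% of cGAMP cells thinned to 5000 UMIs each. The CD31 sort and the removal of Pecam1-negative clusters given in the methods both bear on that share, so it is no independent check of the cell type. UMIs of 13 leucocyte markers, summed and scaled to a library total of 1000000 (CPM), stood at 17.2 CPM with PBS and 49.8 with cGAMP, and 12 of the 13 were higher in the cGAMP library. The neutrophil genes S100a8 and S100a9 had the largest folds among markers above 0 in both, from 0.34 and 0.27 CPM to 6.68 and 9.96, while Retnlg was at 0 with PBS and Cd3d at 0 with cGAMP. Lyve1, a lymphatic endothelial marker also made by macrophages, stood at 10.2 and 43.6 CPM. The part of such cells or of their free RNA in the values below was not tested. The flow cytometry methods gate live ECs as Sytox Green-, CD45- and CD31+, a gate meant to leave out leucocytes. Several values without the cells that carried leucocyte UMIs, meaning a Ptprc UMI or more than 1 UMI of the list, are given beside the results. That limit left out 347 PBS and 589 cGAMP cells. It takes no account of UMIs per cell, so deeper cells are more readily left out.

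In the GRCm38 build the IFITM members lie close together, with Ifitm2 at chr7:140954837-140955987 on the minus strand, Ifitm1 at chr7:140967221-140969825 on the plus strand and Ifitm3 at chr7:141009586-141010770 on the minus strand. Ifi27 (chr12:103434211-103440239, plus) and Ifi27l2a (chr12:103442167-103443680, minus) are also neighbours. Bst2 (chr8:71534255-71537456, minus) and Ifi35 (chr11:101448407-101458698, plus) stand apart from these. No stretch of 31 bases in the last 300 bases of any annotated coding transcript was shared by any pair among Ifitm1, Ifitm2 and Ifitm3, or between Ifi27l2a and either Ifi27 or Ifi27l2b. Over whole transcripts, Ifitm2 and Ifitm3 shared 39 such stretches, Ifitm1 and Ifitm3 shared 35, and Ifi27l2a and Ifi27l2b shared 26, so reads from those stretches could not be assigned to 1 gene. Exon sequence of Ifitm2 also overlaps the span of the annotated Gm45717 on the same strand, whose own exons were not compared. Ifi35 overlaps the antisense gene Gm11626. Neither of these overlapping genes is listed in the files.

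RefSeq promoter windows (GRCm38.p6, 250 bases before to 50 bases after the start) were found for 5 of the 7 genes, all but Ifi27 and Ifi27l2a. They were searched on both strands for GAAA repeated after any 2 bases, the core of the interferon-stimulated response element, and for TTCNNNGAA, the gamma-activated site, which reads the same on both strands. The first motif is present in 3.44% and the second in 8.3% of all 32851 windows. The 3 windows with the first motif are shown to let the arrangement be compared, with matches to either motif in capitals, and each is on the minus strand and written in the direction of transcription. The Bst2 line covers the 250 bases before the start (chr8:71537473-71537722), and the Ifitm2 (chr7:140955988-140956017) and Ifitm3 (chr7:141010715-141010744) lines cover 30 bases.
Bst2: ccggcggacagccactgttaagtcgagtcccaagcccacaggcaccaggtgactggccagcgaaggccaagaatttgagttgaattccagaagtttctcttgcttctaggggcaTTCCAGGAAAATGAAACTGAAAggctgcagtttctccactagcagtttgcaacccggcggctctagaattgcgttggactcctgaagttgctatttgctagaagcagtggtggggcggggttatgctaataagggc
Ifitm2: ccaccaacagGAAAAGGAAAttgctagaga
Ifitm3: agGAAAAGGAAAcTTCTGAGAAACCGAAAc

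In Bst2 a gamma-activated motif at -136 to -128 overlapped the first of a pair of response elements, at -130 to -121 and -124 to -115, counted from the start with -1 as the last base before it. Ifitm2 had a single response element at -46 to -37. In Ifitm3 both matches to the response element, at 3 to 12 and 20 to 29, lay just after the RefSeq start, with a gamma-activated motif at 14 to 22 that overlapped the second. The Ifi35 window held no response element and a single TTCNNNGAA at 8 to 16, and the Ifitm1 window held neither. The 250 bases before the Ifitm1 RefSeq start (chr7:140967826-140968075) lie inside the annotated gene, which begins at 140967221, so the sequence before that annotated start was not searched. A match describes the letters only and does not show that a factor binds there.

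Most of the 7 genes were more abundant in cGAMP-treated ECs, but by very different amounts, and Ifi27 was less abundant. Values are CPM, from UMIs summed over all cells of a library. As 3′ end counts these do not scale with transcript length. Of the 6 members that reached 5 CPM in either library, 3 were at least 2-fold higher with cGAMP (Ifitm3, Bst2 and Ifi27l2a), against 1.82% of all 9509 genes at that level. None was at least 2-fold lower, against 1.7% of genes. Counting Ifitm1, which stayed under 5 CPM in both libraries, 4 of the 7 were at least 2-fold higher. The median log2 ratio over the 7 was 1.37, beside -0.08 over all genes tested. Together the 7 genes took 0.419% of all UMIs with PBS and 0.997% with cGAMP.

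**Figure D1:**
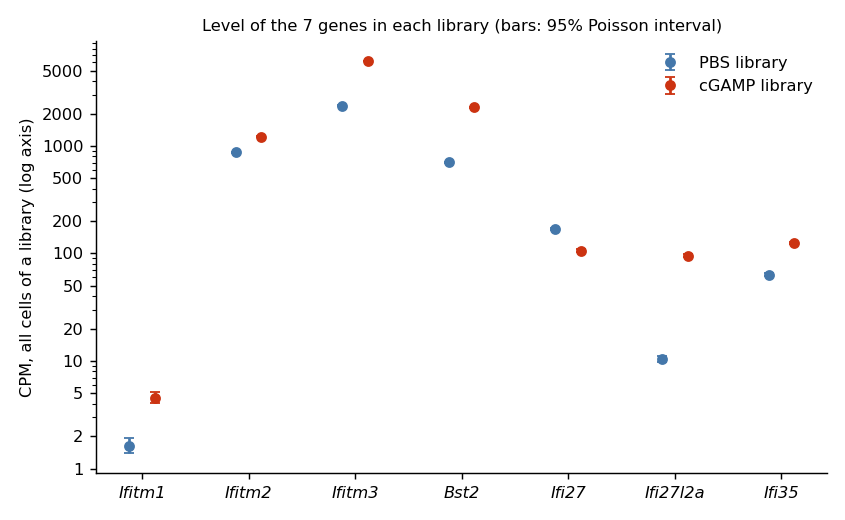
CPM (log axis) of each of the 7 genes over all cells of the PBS library (blue) and the cGAMP library (red), with 95% Poisson intervals that are mostly smaller than the points. Ifi27 is the only gene whose cGAMP point lies below its PBS point, and Ifi27l2a has the widest gap, from 10.5 to 95.6.

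Ifitm3, the IFITM protein most closely tied to protection against influenza virus, stood at 2372 CPM with PBS and 6138 with cGAMP, or 86.8 and 290.3 UMIs per cell. It ranked 75th by level among all genes with PBS and 7th with cGAMP. The log2 ratio was 1.37 (1.36 to 1.38). Ifitm2 was also abundant in PBS-treated ECs, at 869.7 CPM, and stood at 1223 in the cGAMP library. Its log2 ratio of 0.49 (0.48 to 0.51) was the smallest among the 6 members that were higher. Ifitm1 was scarcely detected, with 151 UMIs in the whole PBS library and 290 in the cGAMP library. These correspond to 1.64 and 4.58 CPM and to a log2 ratio of 1.48 (1.19 to 1.77). The 5 cells with the most Ifitm1 UMIs held 28.5% of them with PBS and 33.8% with cGAMP. Without those cells the log2 ratio was 1.37.

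Bst2 stood at 704 CPM with PBS and 2276 with cGAMP. This was a log2 ratio of 1.69 (1.68 to 1.71), or 3.23-fold. Ifi35 was 1.98-fold higher, just under the 2-fold line, at 63.6 CPM with PBS and 126 with cGAMP (log2 ratio 0.98, 0.94 to 1.03). Median-of-ratios scaling brought Ifi35 over the line, at 1.05. Both genes were readily detected in PBS-treated ECs.

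The Ifi27 family pair went apart. Ifi27l2a stood at 10.5 CPM with PBS and 95.6 with cGAMP. Its 9.08-fold difference (log2 ratio 3.18, 3.08 to 3.28) ranked 15th among the 9509 genes tested. Its neighbour Ifi27 stood at 169 CPM with PBS and 106 with cGAMP, with a log2 ratio of -0.67 (-0.71 to -0.62). This ratio was below those of all but 5.48% of the genes tested. In CPM the members of the pair were thus far apart with PBS and close with cGAMP.

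These differences were also present in the 2170 PBS cells and 751 cGAMP cells that carried no Ptprc UMI and at most 1 leucocyte UMI. There the log2 ratios were 1.32 for Ifitm3, 0.55 for Ifitm2, 1.63 for Bst2, 0.91 for Ifi35, 3.36 for Ifi27l2a and -0.60 for Ifi27. That of Ifitm1 was 1.77.

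**Figure D2:**
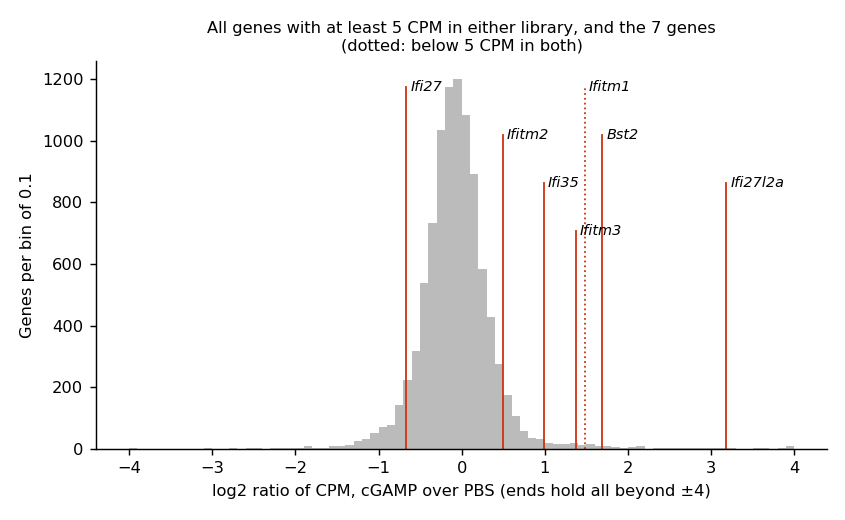
Distribution of the log2 ratio of CPM, cGAMP over PBS, over the 9509 genes that reached 5 CPM in 1 library or both (grey bars, genes per bin of 0.1), with the 7 genes as red lines (Ifitm1 dotted, since it is under 5 CPM in both). The bulk of genes is centred at -0.08, Ifi27 (-0.67) is to its left and the other lines are to its right, out to Ifi27l2a at 3.18.

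To see whether more UMIs meant more cells or more UMIs per cell, each cell was thinned to 5000 UMIs, which left out 70 PBS cells and 13 cGAMP cells as too shallow. Ifitm3 had a UMI in 99.8% of PBS cells and 100% of cGAMP cells, Ifitm2 in 96.9% and 98.7%, and Bst2 in 90.1% and 99.2%. These shares left little room for a difference, and the libraries differed in UMIs per cell. The median of Ifitm3 was 12 UMIs per thinned cell with PBS and 30 with cGAMP, and 74.2% of cGAMP cells exceeded the 90th percentile of PBS cells. The median of Bst2 was 3 and 10 UMIs, and 64.4% of cGAMP cells exceeded that percentile. Ifitm2 overlapped far more between the libraries, with medians of 4 and 6 and with 19.1% of cGAMP cells above the 90th percentile of PBS cells.

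The scarcer members differed in the share of cells. Ifi27l2a had a UMI in 3.51% of thinned PBS cells (2.82% to 4.32%) and in 20.3% of thinned cGAMP cells (18.2% to 22.6%). Among cells with an Ifi27l2a UMI, the mean was 1.60 UMIs with PBS and 2.92 with cGAMP, so both the share and the content per positive cell were higher. Without thinning, 9.50% of PBS cells and 47.1% of cGAMP cells had an Ifi27l2a UMI. Ifi35 had a UMI in 26.8% of thinned PBS cells and 45.4% of thinned cGAMP cells. Ifi27 had a UMI in 53.2% and 41.1%, the reverse direction. Without thinning the Ifi27 shares were 90.9% and 90.7%, in libraries of unequal depth.

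As a measure of RNA carried over from other cells, the myeloid gene Lyz2, which ECs should lack, had a UMI in 1.80% of thinned PBS cells and 5.65% of thinned cGAMP cells. The Ifitm1 shares, 0.94% and 1.51%, were under these values and cannot be told from background. The Ifi27l2a share in PBS cells was above that of Lyz2, and in cGAMP cells it was well above it. Carry-over can differ from gene to gene, so the Lyz2 share sets no floor for another gene. The carry-over of Ifi27l2a and Ifitm1 themselves was not tested.

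Clustering with the 7 genes, other listed interferon genes and variable genes that differed 2-fold between the libraries left out gave 8 clusters, each with cells of both libraries. Clusters were called stalk-like (led by Ackr1 and Selp), proliferative (Ube2c and Cenpf), arterial (Gja4 and Nts) and tip-like (1 led by Gal and Chga, another by Pgf and Bnip3). The other 3 were not named and are given by their leading genes, Ramp3 and Igfbp3, Ung and Hells (genes of DNA synthesis), and Igfbp5 and Ctsh. Stalk-like cells made up 14.5% of the PBS library and 24.7% of the cGAMP library, and Gal/Chga tip-like cells 14.7% and 8.73%. Ifitm2, Ifitm3, Bst2, Ifi27l2a and Ifi35 were higher in the cGAMP library in all 8 clusters, as were 14% of all genes tested. Without cells that carried leucocyte UMIs, the log2 ratio of Ifi35 in the Igfbp5/Ctsh cluster was 0.35 with an interval that included 0 (-0.19 to 0.91). Ifi27 was lower in all 8, as were 19.4% of genes.

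**Figure D3:**
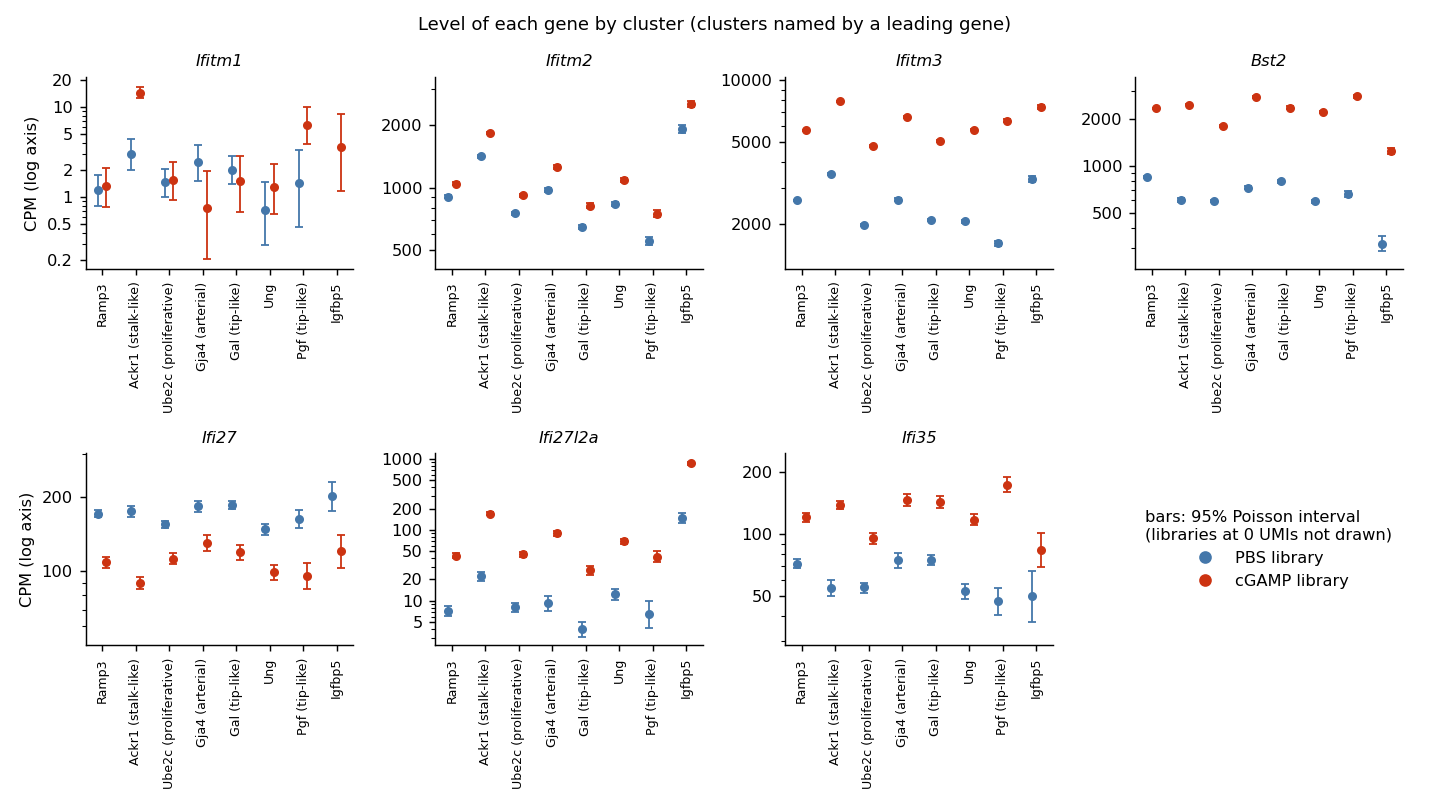
CPM (log axis) of each gene in the PBS library (blue) and the cGAMP library (red) in each of the 8 clusters, named by a leading gene, with 95% Poisson intervals. In all panels but that of Ifitm1 the red points lie on 1 side of the blue points in every cluster, below them for Ifi27 and above them for the others.

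Ifitm2 differed more between clusters than between libraries. In the PBS library it ranged from 553 CPM in the Pgf/Bnip3 tip-like cluster to 1418 in the stalk-like cluster and 1926 in the Igfbp5/Ctsh cluster. In the cGAMP library the same clusters stood at 751, 1839 and 2539. The order of the 8 clusters was nearly identical in both libraries (Spearman correlation 0.98 over 8 clusters, which share a library and its depth). No adjacent pair had overlapping counting intervals in either, but these leave out the spread between cells. In thinned cells the variance of Ifitm2 UMIs was 2.12 times the mean with PBS and 3.06 times with cGAMP. Intervals that included this spread would be wider, and whether neighbours would then overlap was not tested. Log2 ratios within clusters ran from 0.21 to 0.44, all below the 0.49 of the pooled cells. With the proportions of the clusters held at the average of both libraries the ratio was 0.33.

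Ifitm3 was highest in the stalk-like cluster in both libraries, at 3504 and 7937 CPM, and next in the Igfbp5/Ctsh cluster, at 3315 and 7433. The lowest cluster in the PBS library was the Pgf/Bnip3 tip-like cluster, at 1619 CPM. That cluster reached 6389 in the cGAMP library and passed the Ramp3/Igfbp3, Ung/Hells, proliferative and Gal/Chga clusters. Its log2 ratio of 1.98 (1.94 to 2.02) was the largest of the 8, and the smallest was 1.13 (1.11 to 1.14) in the Ramp3/Igfbp3 cluster. Levels spanned 2.16-fold between clusters with PBS and 1.65-fold with cGAMP.

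Bst2 and Ifi35 had their largest ratios in the same Pgf/Bnip3 tip-like cluster. There Bst2 stood at 659 CPM with PBS and 2771 with cGAMP (log2 ratio 2.07), and Ifi35 at 47.1 and 174 (1.89). Ifi35 was lowest of the 8 clusters there in the PBS library, although 6 of the 7 adjacent pairs had overlapping intervals, and highest in the cGAMP library. The cluster held 102 PBS cells and 64 cGAMP cells, and 2 leucocyte markers were raised in it. Without the cells that carried leucocyte UMIs the log2 ratios were 1.87 for Ifitm3, 2.07 for Bst2 and 1.81 for Ifi35. When the cells were clustered without integration of the libraries, the largest ratio of Ifitm3 in any cluster was 1.38, that of Bst2 1.70 and that of Ifi35 1.17, so the size of this difference rests on how the cells were grouped.

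Bst2 was otherwise lowest in the Igfbp5/Ctsh cluster in both libraries, at 319 and 1247 CPM, where Ifitm2 was highest. In the stalk-like cluster it stood at 606 and 2457 CPM, a log2 ratio of 2.02. The Ramp3/Igfbp3 cluster, highest in the PBS library at 849 CPM, had the smallest ratio, 1.45, and stood at 2323 in the cGAMP library. The Bst2 level spanned 2.66-fold between clusters with PBS and 2.22-fold with cGAMP, both set by the Igfbp5/Ctsh cluster of 46 PBS cells and 50 cGAMP cells. The other clusters ran from 593 to 849 CPM with PBS and from 1790 to 2771 with cGAMP. Which library varied more thus rests on that small cluster.

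Ifi27l2a had the widest spread between clusters of the members above 5 CPM, 36.5-fold with PBS and 32.3-fold with cGAMP. The PBS span is set against a lowest cluster, Gal/Chga, in which 0.54% of thinned PBS cells had an Ifi27l2a UMI, under the 1.80% of Lyz2 over the PBS library. The Igfbp5/Ctsh cluster was highest in both, at 146 CPM (123 to 171) with PBS and 869 (821 to 919) with cGAMP. It held 1.83% of PBS cells but 148 of their 970 Ifi27l2a UMIs, and 3.73% of cGAMP cells but 1209 of their 6058. After thinning, 11 of 45 PBS cells and 35 of 50 cGAMP cells of this cluster had an Ifi27l2a UMI. In the cluster 13 of 15 stalk-like markers were raised, but none was among its 10 leading genes. The stalk-like cluster came next, at 22.3 and 169 CPM.

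At the other end, the Gal/Chga tip-like cluster held Ifi27l2a at 3.99 CPM with PBS and 26.9 with cGAMP. Log2 ratios ran from 2.47 to 3.28 in the 8 clusters. In the Pgf/Bnip3 cluster 1 of 102 PBS cells held all 23 Ifi27l2a UMIs. After thinning, 1.99% of Ramp3/Igfbp3 and 1.0% of Pgf/Bnip3 PBS cells had a UMI, beside 1.80% for Lyz2 over the PBS library. Of Gal/Chga cGAMP cells 7.69% (3.58% to 14.1%) had one, beside 5.65% for Lyz2. These ratios thus rest on shares near those of Lyz2, and carry-over of Ifi27l2a itself was not tested. Without cells that carried leucocyte UMIs they ran from 1.90 in the Gal/Chga cluster to 3.56 in the arterial cluster, and none could be computed for the Pgf/Bnip3 cluster, which then had no Ifi27l2a UMI with PBS and 23 with cGAMP. Levels with cGAMP then ran from 16.8 CPM in the Gal/Chga cluster to 1085 in the Igfbp5/Ctsh cluster. With all cells, the order of clusters was nearly the same in both libraries (Spearman correlation 0.98 over 8 clusters). With cluster proportions held at their average the ratio was 2.75 instead of 3.18. Without any cell of the Igfbp5/Ctsh cluster, an alternative chosen after its level was seen, the gene remained higher in the cGAMP library at a log2 ratio of 3.12.

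Ifi27 was nearly even between clusters, spanning 1.36-fold in the PBS library (148 to 202 CPM) and 1.45-fold in the cGAMP library (89.9 to 130). All 7 adjacent pairs in either order of clusters had overlapping intervals. The ratio was lowest in the stalk-like cluster, where Ifi27 went from 175 CPM in the PBS library to 89.9 in the cGAMP library (log2 ratio -0.96, -1.07 to -0.85). It was nearest to 0 in the proliferative cluster, at 155 and 113 CPM (-0.46, -0.55 to -0.37). In the cGAMP library the stalk-like cluster was thus lowest for Ifi27, while it was next to highest for Ifi27l2a.

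Ifitm1 was the exception to the shared direction. In the cGAMP library 206 of its 290 UMIs came from the stalk-like cluster, which stood at 14.5 CPM, compared with 3.04 in the PBS library (log2 ratio 2.26, 1.67 to 2.89). Without the 5 cells with the most Ifitm1 UMIs in each library these values were 1.36 and 8.94. Without cells that carried leucocyte UMIs they were 1.57 and 15.4. In the arterial cluster Ifitm1 went the other way, with 20 UMIs with PBS and 4 with cGAMP (2.48 and 0.76 CPM). Without cells that carried leucocyte UMIs, 9 and 2 UMIs were left there (log2 ratio -1.14, -4.39 to 1.13), an interval that included 0. In the Pgf/Bnip3 tip-like cluster Ifitm1 stood at 1.42 and 6.40 CPM, the latter from 19 UMIs in 64 cGAMP cells. Without the 5 cells with the most Ifitm1 UMIs in each library, 63 cGAMP cells with 2 UMIs were left (0.68 CPM). The cGAMP value there thus rested on a single cell. No Ifitm1 UMI was left in the cGAMP cells of this cluster once cells with leucocyte UMIs were left out. Leaving them out also moved the log2 ratio in the Ramp3/Igfbp3 cluster from 0.14 to -1.75 and that in the proliferative cluster from 0.10 to -0.84, on few UMIs.

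ECs also differed within a library in how much of the interferon response they carried. A score was formed from the UMIs of 39 other interferon genes (antiviral effectors and interferon-inducible GTPases) in each thinned cell, with a median of 3 UMIs with PBS and 14 with cGAMP. Cells of each library were cut by this score into 4 score groups of equal size, so a score group is a range and not a cell type. From the lowest to the highest score group, Bst2 went from 487 to 1095 CPM with PBS and from 1504 to 3008 with cGAMP. Ifi35 went from 41.5 to 110.0 and from 66.9 to 187. Ifitm3 went from 1887 to 3412 and from 4575 to 8098. Bst2 and Ifitm3 thus had higher levels at each step in both libraries.

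Ifitm2 varied little with the score, 1.13-fold between the lowest and the highest score group of the PBS library and 1.34-fold in the cGAMP library, and 1.06-fold and 1.08-fold when score groups were cut within each cluster. Ifi27l2a went from 8.82 to 15.1 CPM with PBS and from 69.3 to 175 with cGAMP. Ifi27 went the other way in both, from 188 to 158 CPM and from 139 to 81.0. Its lower level in cells with a higher score was seen at each step, and the ratio of the highest to the lowest was 0.84 with PBS and 0.58 with cGAMP. Cut within clusters these ratios were 0.81 and 0.52.

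**Figure D4:**
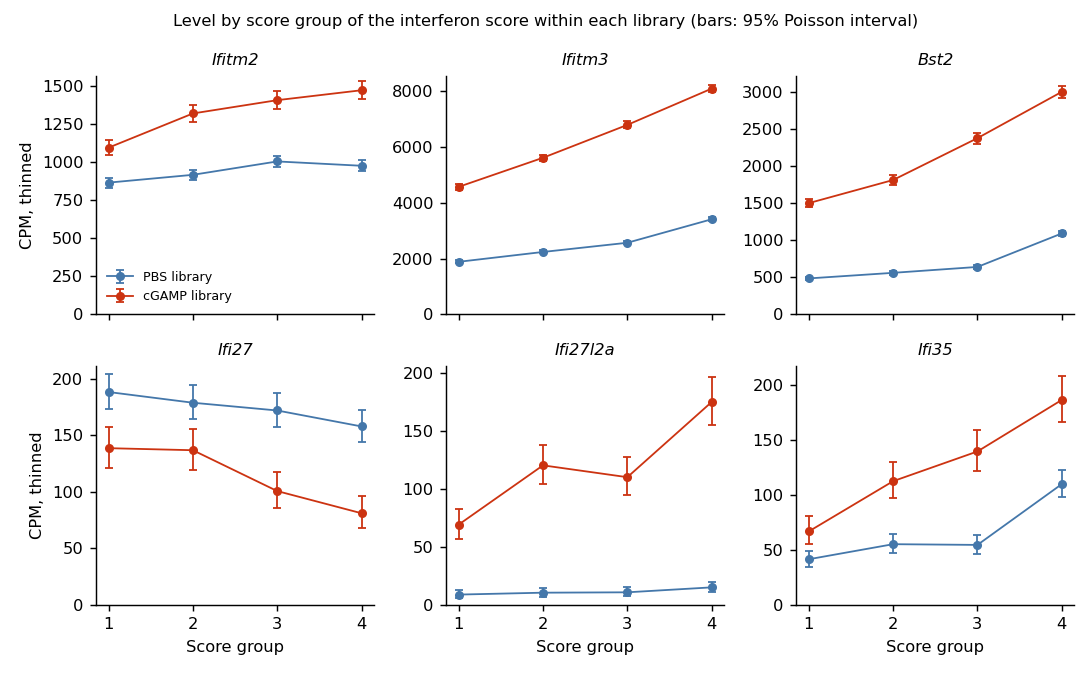
CPM, after thinning to 5000 UMIs per cell, by score group of the interferon score (1 lowest, 4 highest) within the PBS library (blue) and the cGAMP library (red), with 95% Poisson intervals and vertical axes that start at 0. Ifitm3, Bst2 and Ifi35 are higher in the highest than in the lowest group in both libraries, Ifitm2 is nearly flat in the PBS library, and Ifi27 slopes down in both.

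Cells of both libraries that had the same score could be compared as well. Scores of few UMIs carry counting error, so cells in 1 range need not have had equal interferon responses. In the 5 ranges between 0 and 29 UMIs, Ifitm3 was higher in the cGAMP library by 0.77 to 1.0 on the log2 scale, less than the 1.37 of all cells. Bst2 was higher by 0.87 to 1.32, compared with 1.69. Ifi35 was higher by 0.16 to 0.52, compared with 0.98, and its interval included 0 in 3 of the 5 ranges. Ifi27l2a was higher by 2.24 to 3.80 in the 4 ranges in which both libraries had UMIs of it, compared with 3.18. It stood at 9.95 CPM with PBS and 47.1 with cGAMP at a score of 0 to 4, and at 14.4 and 86.9 at a score of 5 to 9. At a score of 20 to 29 no Ifi27l2a UMI was found in 52 PBS cells, whereas 208 cGAMP cells had 119. Ifi27 was lower in the cGAMP library in all 5 ranges, by log2 ratios of -0.29 to -0.73.

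**Figure D5:**
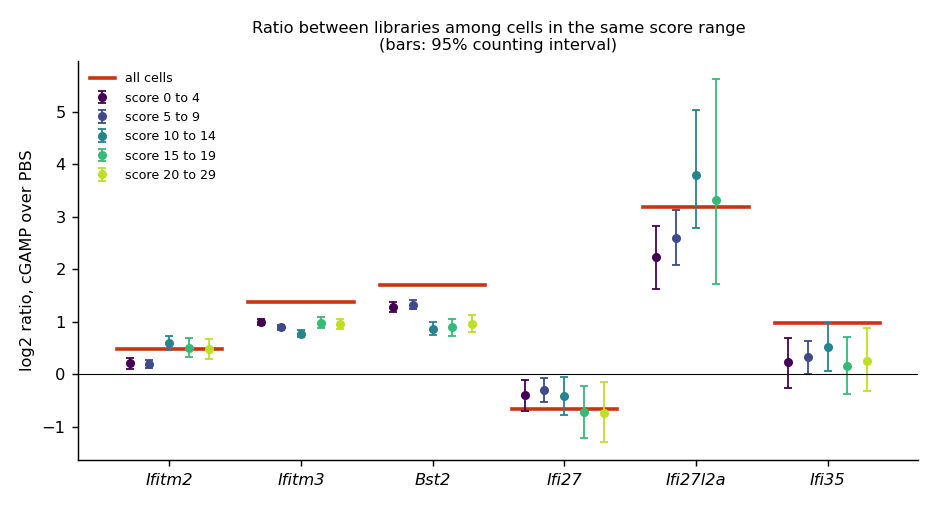
Log2 ratio of CPM, cGAMP over PBS, among thinned cells in the same range of the interferon score (points, 95% counting intervals), beside the ratio over all cells (red lines). Points of Ifitm3, Bst2 and Ifi35 lie below their red lines, most Ifi35 intervals reach 0, and Ifi27l2a points lie between 2.24 and 3.80. No point is drawn for Ifi27l2a at a score of 20 to 29, where the PBS cells had no UMI.

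From cell to cell, Ifitm3 and Bst2 varied together. With cluster means subtracted, Pearson's correlation of log2(thinned UMIs + 1) was 0.38 over 2447 PBS cells and 0.48 over 1327 cGAMP cells. Those of Ifitm2 and Ifitm3 were 0.20 and 0.25. With cells thinned to 10000 UMIs instead, the values were 0.48 and 0.57 for Ifitm3 and Bst2 and 0.32 and 0.35 for Ifitm2 and Ifitm3, so their size depended on depth. Over all 21 pairs of members the median was 0.02 in both libraries, and the scarcer members had no UMI in most thinned cells. The cells of a library are not replicates, and these values are descriptions.

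Over the 16 cluster-by-library profiles, with the mean of each library subtracted, the genes with the pattern closest to each member by Pearson's r among 6045 genes differed between members. Those of Bst2 were Mndal (0.95), Oas1a (0.95) and Isg15 (0.93), and those of Ifi35 were Phf11d (0.95), Daxx (0.93) and Ifi44 (0.92), most of which are themselves interferon genes. Those of Ifitm2 were Gpx1 (0.99), Cd59a (0.98) and Psen2 (0.98), and those of Ifitm3 were Csrnp1 (0.92), Il18bp (0.91) and Uqcc3 (0.91). Ifi27l2a was most like Lrrc42 (0.97), Pam (0.96) and Uap1 (0.96), and Ifi27 most like 1700020I14Rik (0.86), Cyb5r3 (0.85) and Klf10 (0.82). Ifitm1, whose counts were few, was most like Sbno1 (0.74), Psme1 (0.70) and Cnot2 (0.70). All these are the highest r among 6045 genes over only 16 profiles, so a high r can arise from the search alone. A single cluster with an extreme level, such as Igfbp5/Ctsh for Ifi27l2a, can also set it. The values are descriptions.

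Other interferon genes, in lists chosen by function, give the setting. Of 20 antiviral effectors tested all 20 were higher in the cGAMP library and 14 at least 2-fold, with a median log2 ratio of 1.49 and extremes of Cmpk2 at 0.13 and Oas3 at 3.18. Of 14 interferon-inducible GTPases all 14 were higher and 12 at least 2-fold, with a median of 1.49. The ratios of Ifitm3 and Bst2 lay near these medians, Ifitm2 and Ifi35 below them and Ifi27l2a at the level of Oas3. Over all 9509 genes 3840 were higher and 5669 lower.

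Genes of interferon sensing and signalling were less different. Of 20 tested, 15 were higher and 2 at least 2-fold, with a median log2 ratio of 0.30. The transcription factor Irf7 stood at 82.7 CPM with PBS and 651 with cGAMP (2.98), and the feedback inhibitor Socs1 at 6.64 and 17.8 (1.42). Stat2 (0.66) and Irf9 (0.63), which encode transducers of the type I interferon signal, were higher in all 8 clusters. Ifnar1, a subunit of the type I interferon receptor, was lower, at 56.0 and 34.1 CPM (-0.72), in each of the 8 clusters, while its partner subunit Ifnar2 was higher (0.35).

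Of 6 tested genes whose products act on the members, 2 were higher, compared with 3840 of all 9509 genes. None was at least 2-fold higher or lower, compared with 1.82% and 1.7% of genes. Nedd4, a ubiquitin ligase that marks Ifitm3 for degradation, stood at 483 CPM with PBS and 317 with cGAMP (log2 ratio -0.60), and it was lower in every cluster, as were 19.4% of genes. Zdhhc20, an enzyme that attaches palmitate to IFITM proteins, stood at 93.8 and 69.5 (-0.43), and March8, a ligase of membrane proteins, at 15.9 and 12.5 (-0.35). The tetraspanin Cd81 (-0.16) and the IFITM cofactor Zmpste24 (0.02) differed little, and Vapa, an endoplasmic reticulum protein that binds Ifitm3, was slightly higher (0.25). Nmi, the partner of Ifi35, stood at 54.3 and 91.6 CPM, a log2 ratio of 0.75 beside the 0.98 of Ifi35, and was higher in all 8 clusters. The relatives Ifitm5, Ifitm6, Ifitm7, Ifitm10 and Ifi27l2b stayed below 5 CPM in both libraries.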

How the data were processed

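Live, sorted CD31+ ECs of 1 PBS-treated and 1 cGAMP-treated mouse were profiled by 3′ droplet scRNA-seq. The labels name kit v2 and the methods v3, and a supplementary legend gives an earlier sampling time than the 24 h of the methods. The authors aligned reads to mm10 with Cell Ranger 3.0.0 and used Seurat 3.1.1, kept cells with at least 500 genes and at most 10% mitochondrial UMIs, and kept genes found in at least 3 cells. Their methods also remove Pecam1-negative clusters. The deposited cells, 2517 with PBS and 1340 with cGAMP, equal the final cell numbers that the paper lists for these libraries. Doublet removal is not given in the sources used here, and none was done. The deposited values are natural logs (ln) of 1 plus UMIs per 10000 in each cell. Dividing each cell's back-transformed values by its smallest step gave whole UMIs for 100% of values (tolerance 0.01), in total 92081146 for PBS and 63366746 for cGAMP. No strand setting is given for the counting.

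UMIs were summed over cells, scaled to a library total of 1000000 (CPM) and compared as log2 ratios. Intervals (95%) were exact Poisson for levels, conditional binomial for ratios and Clopper-Pearson for shares. PCR duplicates are removed by UMIs, but the intervals leave out variation between mice and spread between cells beyond counting error. In thinned cells the variance of Ifitm3 UMIs was 3.92 times the mean with PBS and 5.01 times with cGAMP. The background count took genes that reached 5 CPM in 1 library or both, and the call was 2-fold. Cells were clustered in Seurat 5.3.0 (R 4.3.3) with 2500 variable genes, of which 1779 were kept, integration anchors, 30 components and resolution 0.5. A cluster was named where at least 3 markers of a list were raised 2-fold and that list led among its 10 leading genes, a rule set after the clusters were seen. Cells were thinned with a fixed seed in numpy 2.4.6. On Poisson counts simulated for 9509 genes with 200 changed, 95.3% of ratio intervals covered the true value. Such counts hold no spread between cells beyond counting error, so that share does not show the coverage in the real libraries. The genes, the lists beside them (named by their highest and lowest ratios, or in whole) and the alternatives were chosen with earlier results of these data known. Gene positions are from GENCODE vM21. No p-value was computed. The values of 1 gene of the signalling list are not reported here.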

Additional observations from a re-analysis of the deposited data

Results flagged for a closer look

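Over all deposited cells, the Ifitm1 ratio differed in direction between endothelial clusters, on few UMIs. In the stalk-like cluster its log2 ratio of cGAMP over PBS was 2.26 (1.67 to 2.89), with 27 UMIs in 365 PBS cells and 206 UMIs in 331 cGAMP cells. In the arterial cluster it was -1.71 (-3.72 to -0.14), with 20 UMIs in 339 PBS cells and 4 in 172 cGAMP cells. The difference between the clusters was not tested, there being 1 library per condition, and the intervals cover counting error only. Without the 5 cells with the most Ifitm1 UMIs in each library, the values were 2.72 (1.86 to 3.71) in the stalk-like cluster and -0.98 (-3.07 to 0.74) in the arterial cluster. Without cells that carried leucocyte UMIs they were 3.29 (2.42 to 4.29) and -1.14 (-4.39 to 1.13). The arterial interval thus included 0 in both alternatives.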

How the results depend on the processing

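No paired analysis was possible because each condition had a single library. All alternatives named here are reanalyses of the same 2 libraries. The median log2 ratio of the 7 genes, 1.37, was 1.44 with median-of-ratios scaling, 1.31 with each cell weighted equally and 1.21 with cluster proportions held at their average. It was 1.34 in cells with at most 5% mitochondrial UMIs and 1.35 without the 5% of cells with the most UMIs. In cells with no Ptprc UMI and at most 1 leucocyte UMI, which left out 347 PBS and 589 cGAMP cells, it was 1.32. The share of all genes at least 2-fold higher, 1.82%, was 4.33% with no CPM minimum and 4.53% at 1.5-fold. Of the genes that reached the CPM minimum, 3 or 4 passed the fold in each of these. Over all 7 genes whatever their level, 5 were at least 2-fold higher with median-of-ratios scaling and with held cluster proportions, where Ifi35 passed. That count includes Ifitm1, which stayed under 5 CPM in both libraries. The shares of all genes at the CPM minimum were 2.06% with median-of-ratios scaling and 1.65% with held proportions. No single gene changed direction over all cells in any of the alternatives. Ranges were 1.26 to 1.44 for Ifitm3, 0.33 to 0.56 for Ifitm2, 1.21 to 1.77 for Ifitm1, 1.63 to 1.76 for Bst2, 0.91 to 1.05 for Ifi35, 2.75 to 3.40 for Ifi27l2a and -0.72 to -0.60 for Ifi27. With other clusterings (resolution 0.3 and 1.2, no integration, all variable genes, or marker ranks alone) 5 genes remained higher in every cluster. The share of all genes higher in every cluster is given for the main clustering only (14%), so those counts have no background beside them. The largest ratio of Ifitm3 in a cluster was 1.32 to 1.96 with the other clusterings instead of 1.98. Without integration the smallest ratio of Ifi35 in a cluster was 0.06 instead of 0.74. The few UMIs of Ifitm1 limit what its cluster values can show.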
